A study of Homo sapiens with 6 samples.

Results

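The genes described here build the DNA replication fork of human cells and supply it with nucleotides. They were chosen by symbol as the subunits and loaders of the replication machinery, 5 enzymes of nucleotide supply and 3 genes of S-phase entry. All 44 were found in the gene table, which holds 12385 genes. RNA came from MKN-74, an established line of human gastric cancer cells, in 3 libraries of LV-HOXD9 and 3 libraries of LV-Vector cells. LV-HOXD9 cells had been infected with a lentivirus that carries HOXD9, and LV-Vector cells with the same lentivirus without it. The vector holds a ubiquitin promoter, a 3×FLAG tag, green fluorescent protein and a puromycin resistance gene, so both groups carry the backbone and both were selected with 10 µg/ml puromycin for at least 14 days. HOXD9, the homeobox transcription factor of the insert, was at 26.6, 26.4 and 31.3 FPKM in LV-HOXD9 libraries, against 0, 0.0413 and 0.0309 FPKM in LV-Vector libraries. FPKM are fragment counts scaled by transcript length and by the total of the library.

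The libraries are called biological replicates, but whether they came from separate infections or only from separate dishes of 1 selected pool is not said, so p-values measure the spread between these 6 libraries. Each library summed to 256588 to 270501 FPKM in LV-HOXD9, against 242093 to 257015 FPKM in LV-Vector, and since the tables hold no read counts, the sequencing depth is unknown. The epithelial character of the line was visible in both groups, with the keratin genes KRT19 and KRT18 at means of 316 and 296 FPKM in LV-HOXD9 cells, against 273 and 239 FPKM in LV-Vector cells. The 9 epithelial markers summed to 1142 to 1172 FPKM in LV-HOXD9 libraries, against 985 to 1131 FPKM in LV-Vector libraries, a sum carried by the keratins. Of the 9 markers 6 had a log2 fold change below 0, CLDN4 (-0.52) and CLDN7 (-0.12) among them, as had 7420 of all 12385 genes. The median of the markers was -0.021, against -0.044 over all genes. The cadherin gene CDH1 averaged 2.41 FPKM in LV-HOXD9 cells, against 2.46 FPKM in LV-Vector cells. Of 14 markers of immune, fibroblast, endothelial and liver cells, 11 had no row in the table and were not analysed here. Of the rest, LYZ, a lysozyme gene listed as an immune marker, averaged 1.56 FPKM in LV-HOXD9 cells, against 2.87 FPKM in LV-Vector cells. Its groups did not overlap (log2 fold change -0.60), and which cells its RNA came from was not tested. COL1A1, a fibroblast collagen, averaged 0.983 FPKM in LV-HOXD9 cells, against 1.11 FPKM in LV-Vector cells.

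Replication begins when the origin recognition complex, CDC6 and CDT1 load the ring-shaped MCM helicase onto DNA in G1. In S phase CDC45 and the GINS complex join the ring to make the active helicase, polymerase alpha with primase lays down primers, and polymerases delta and epsilon extend them on the sliding clamp PCNA. The clamp is placed by replication factor C, single-stranded DNA is covered by replication protein A, and FEN1 and LIG1 join the fragments of the lagging strand. Many of these genes are transcribed in late G1 through E2F transcription factors, which is why their RNA is widely used as a sign of cells entering S phase. In RNA from whole cultures, more cells in S phase and more RNA of these genes per cell cannot be told apart.

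None of the 44 genes passed an adjusted p of 0.05 from limma, a linear model with variances shared between genes, in either direction. Over all genes, 0.0565% were higher and 0.145% were lower in LV-HOXD9 cells by that criterion. At an unadjusted p under 0.05, 10 of the 44 genes (22.7%) were higher in LV-HOXD9 cells, where 7.12% of all genes were, and 3 (6.82%) were lower, where 11.9% of all genes were. The 10 were TYMS, GINS2, MCM7, RRM2, FEN1, TK1, GINS3, ORC1, MCM5 and MCM2, and the 3 were RFC1, POLA1 and MCM6. Mean FPKM of the 10 were 12.4% to 27.1% above those of LV-Vector cells, and adjusted p-values were between 0.127 for TYMS and 0.226 for MCM2. All 3 LV-HOXD9 values lay above all 3 LV-Vector values in 13 of the 44 genes (29.5%), against 10.9% of all genes, and below them in 4 genes (9.09%), against 17.5%. These 17 genes had a two-sided exact permutation p of 0.10, the smallest that 3 libraries against 3 can give. The median log2 fold change of log2(FPKM + 1), LV-HOXD9 over LV-Vector, was 0.088 over the 44 genes and -0.044 over all 12385 genes. Above 0 were 32 of the 44 genes and 4965 of all genes.

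These counts moved with the scaling and with single libraries. With each library scaled to a common total (TPM), 5 of the 44 genes were higher and 4 were lower at an unadjusted p under 0.05, and the median was 0.025, against -0.11 over all genes, of which 3.68% were higher and 15.5% were lower. Counted by sign alone, 27 of the 44 were then above 0, and 3700 of all 12385 genes were. Without LV-HOXD9 replicate 2, 6 of the 44 were higher and 3 were lower, where 5.89% and 9.67% of all genes were. Without LV-HOXD9 replicate 3, 13 were higher and 1 was lower, where 5.62% and 8.45% of all genes were. Without LV-Vector replicate 2, 8 were higher and 1 was lower, where 4.61% and 7.15% of all genes were. Summed over the 44 genes, the level was 993, 990 and 921 FPKM in LV-HOXD9 libraries, against 874, 910 and 905 FPKM in LV-Vector libraries, which do not overlap. As a share of all FPKM of a library the sums were 0.385%, 0.386% and 0.341% in LV-HOXD9 libraries, against 0.347%, 0.376% and 0.352% in LV-Vector libraries, which overlap. LV-HOXD9 replicate 3, with the largest total of the 6 libraries, had the smallest share.

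**Figure D1:**
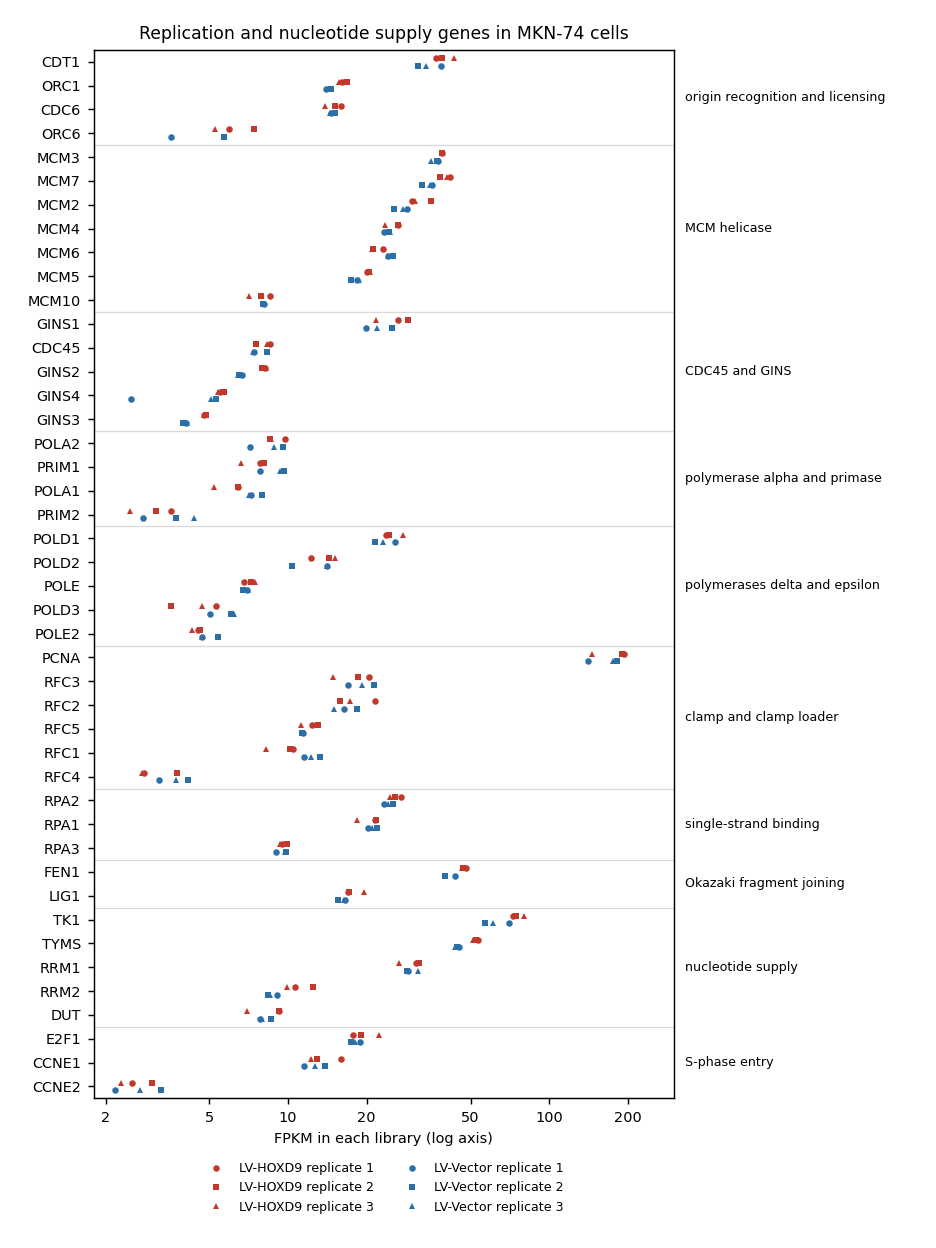
FPKM of the 44 genes in each library, on a log axis, grouped by role. Red symbols are the 3 LV-HOXD9 libraries and blue symbols the 3 LV-Vector libraries, with 1 symbol shape per replicate number. Levels run from 2.18 FPKM for CCNE2 in LV-Vector replicate 1 to 194 FPKM for PCNA in LV-HOXD9 replicate 1, and in 27 of the 44 genes the red and blue symbols overlap.

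Levels spanned a wide range within the machinery. Over the 6 libraries 15 of the 44 genes averaged above 20 FPKM, 23 lay between 5 and 20 FPKM and 6 were below 5 FPKM, with a median of 14.1 FPKM against 5.44 FPKM over all genes. PCNA, at 172 FPKM, stood above all other genes of the group, followed by TK1, TYMS and FEN1. The lowest was CCNE2, at 2.66 FPKM. No gene of the group was absent from a library, and the lowest single value was 2.18 FPKM.

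The promoters of the genes were read for letters that E2F factors are known to bind. RefSeq windows of GRCh38.p14, which run from 250 bases before to 50 bases after an annotated start, were given for 37 of the 44 genes, not for MCM4, MCM5, POLD3, GINS4, RPA2, RPA3 and CCNE2. The E2F form searched was any of TTTCCCGC, TTTCGCGC, TTTGCCGC and TTTGGCGC on either strand. A gene counted when any of its windows held a match. It was found for 19 of the 37 genes (51.4%), for 609 of 8891 genes of the gene table that have a window (6.85%), and for 3.99% of all 27305 genes with a window. The CCAAT box, bound by NF-Y, was found for 22 of the 37 genes (59.5%) and for 43.3% of the genes of the gene table, and a HOX form, CNATAAA, for 2 of the 37 (PRIM2 and CDC45, 5.41%) and for 8.06%. Matches on the 2 strands may overlap, and a match is a description of letters, not a bound site.

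**Figure D2:**
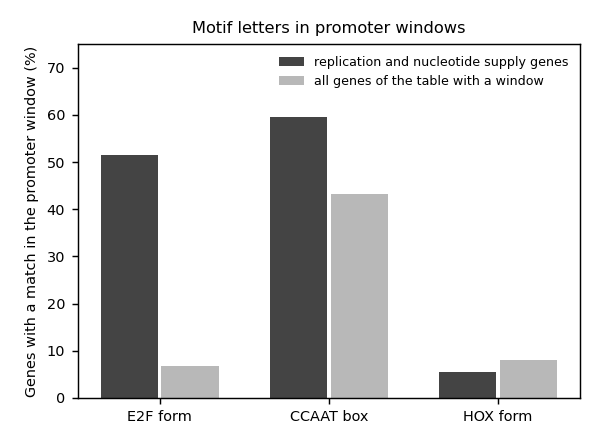
Share of genes with at least 1 match in a promoter window, in percent, for the E2F form, the CCAAT box and the HOX form. Dark bars are the 37 replication and nucleotide supply genes with a window and light bars the 8891 genes of the gene table with one, and the E2F form shows the widest gap, at 51.4% against 6.85%.

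The windows of 6 genes are shown so that both directions of fold change can be read beside their letters: TYMS, GINS2 and MCM7 are the 3 higher genes with the smallest p, and MCM6, POLA1 and RFC1 are the 3 lower genes, all by an unadjusted p under 0.05 only. Each is printed 5′ to 3′ on the strand of its gene, with matches to the E2F form in capitals. The positions in GRCh38.p14 are chr18:657403-657702 on the plus strand for TYMS, chr16:85688905-85689204 on the minus strand for GINS2 and chr7:100101348-100101647 on the minus strand for MCM7. For the lower genes they are chr2:135876394-135876693 on the minus strand for MCM6, chrX:24693668-24693967 on the plus strand for POLA1 and chr4:39366313-39366612 on the minus strand for RFC1.
TYMS: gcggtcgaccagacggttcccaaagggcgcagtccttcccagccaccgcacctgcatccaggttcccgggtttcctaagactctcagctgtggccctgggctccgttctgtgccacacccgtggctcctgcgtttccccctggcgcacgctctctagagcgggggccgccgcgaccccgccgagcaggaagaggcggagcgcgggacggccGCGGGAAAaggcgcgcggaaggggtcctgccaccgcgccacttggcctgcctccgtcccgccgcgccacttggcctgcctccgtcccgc
GINS2: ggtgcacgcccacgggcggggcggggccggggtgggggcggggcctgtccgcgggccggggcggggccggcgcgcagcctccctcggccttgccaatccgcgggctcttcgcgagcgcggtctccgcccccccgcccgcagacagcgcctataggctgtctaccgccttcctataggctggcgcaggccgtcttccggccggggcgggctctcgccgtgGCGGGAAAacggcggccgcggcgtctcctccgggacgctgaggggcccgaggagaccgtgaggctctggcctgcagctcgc
MCM7: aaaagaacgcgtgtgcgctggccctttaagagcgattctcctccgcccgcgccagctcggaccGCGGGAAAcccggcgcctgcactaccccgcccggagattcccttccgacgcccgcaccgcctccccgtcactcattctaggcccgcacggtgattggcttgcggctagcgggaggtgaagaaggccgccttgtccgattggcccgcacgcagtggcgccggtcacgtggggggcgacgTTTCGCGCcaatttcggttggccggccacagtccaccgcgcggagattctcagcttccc
MCM6: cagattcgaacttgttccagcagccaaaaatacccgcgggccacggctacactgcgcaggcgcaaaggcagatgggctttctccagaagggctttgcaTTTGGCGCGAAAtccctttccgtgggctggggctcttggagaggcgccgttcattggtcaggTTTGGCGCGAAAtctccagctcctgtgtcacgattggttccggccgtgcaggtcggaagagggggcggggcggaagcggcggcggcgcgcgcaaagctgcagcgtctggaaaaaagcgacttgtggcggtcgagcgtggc
POLA1: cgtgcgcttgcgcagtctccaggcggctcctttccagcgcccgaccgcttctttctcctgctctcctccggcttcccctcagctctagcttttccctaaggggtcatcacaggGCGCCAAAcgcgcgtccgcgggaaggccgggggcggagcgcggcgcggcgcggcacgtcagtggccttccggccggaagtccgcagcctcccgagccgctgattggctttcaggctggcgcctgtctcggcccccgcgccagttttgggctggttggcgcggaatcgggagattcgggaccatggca
RFC1: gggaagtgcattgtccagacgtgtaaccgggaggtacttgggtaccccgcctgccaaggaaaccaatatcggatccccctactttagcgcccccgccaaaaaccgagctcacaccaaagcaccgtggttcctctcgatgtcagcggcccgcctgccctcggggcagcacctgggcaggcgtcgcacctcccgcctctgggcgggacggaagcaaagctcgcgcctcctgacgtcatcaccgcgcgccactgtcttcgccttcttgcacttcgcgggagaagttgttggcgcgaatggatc

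TYMS, GINS2 and POLA1 have 1 match each, MCM7 has 2, MCM6 has 4 in overlapping pairs and RFC1 has none. Among genes with a window, the E2F form was present in 5 of 9 that were higher at an unadjusted p under 0.05, in 2 of 3 that were lower, and in 12 of the other 25. E2F1, the transcription factor itself, was at 17.7, 19.0 and 22.3 FPKM in LV-HOXD9 libraries, against 18.9, 17.4 and 18.0 FPKM in LV-Vector libraries, a log2 fold change of 0.11 (95% confidence interval -0.10 to 0.33, adjusted p = 0.508 from limma). The groups overlap, with the highest value in LV-HOXD9 replicate 3. CCNE1, the cyclin E that drives entry into S phase, was at 15.9, 12.9 and 12.3 FPKM in LV-HOXD9 libraries, against 11.5, 13.8 and 12.7 FPKM in LV-Vector libraries. Its paralog CCNE2 was at 2.53, 3.02 and 2.29 FPKM in LV-HOXD9 libraries, against 2.18, 3.25 and 2.72 FPKM in LV-Vector libraries. Both cyclin E genes had overlapping groups, with log2 fold changes of 0.10 (adjusted p = 0.627) and -0.04 (adjusted p = 0.890). The sign of each of these 3 genes turned in 1 or more alternatives.

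The enzymes of nucleotide supply held 3 of the 10 higher genes (60.0% of the 5, against 7.12% of all genes). All 5 had a log2 fold change above 0, where 4965 of all 12385 genes had, and their median was 0.23. However, RRM1 and DUT were below 0 on the TPM scale and RRM1 was below 0 after quantile normalization. TYMS, thymidylate synthase, which makes dTMP from dUMP, was at 53.2, 52.2 and 51.0 FPKM in LV-HOXD9 libraries, against 45.1, 44.2 and 43.4 FPKM in LV-Vector libraries. Every LV-HOXD9 value of TYMS lay above every LV-Vector value, and the libraries of a group differed little. Its log2 fold change was 0.23 (95% confidence interval 0.12 to 0.35, adjusted p = 0.127 from limma), the smallest p of the 44 genes. The gene lies on chromosome 18, at 657604 to 673578 of GRCh37, and shares sequence with ENOSF1 on the opposite strand.

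TK1, the thymidine kinase that salvages thymidine, was at 72.4, 74.8 and 80.2 FPKM in LV-HOXD9 libraries, against 69.9, 56.9 and 61.1 FPKM in LV-Vector libraries. The lowest LV-HOXD9 value was close to the highest LV-Vector value, and the log2 fold change was 0.27 (95% confidence interval 0.07 to 0.48, adjusted p = 0.197 from limma). RRM2, the S-phase subunit of ribonucleotide reductase, was at 10.6, 12.4 and 9.87 FPKM in LV-HOXD9 libraries, against 9.08, 8.34 and 8.51 FPKM in LV-Vector libraries. Its groups did not overlap either, with a log2 fold change of 0.31 (95% confidence interval 0.09 to 0.53, adjusted p = 0.187). RRM1, the large subunit of the same enzyme, averaged 29.8 ± 2.79 FPKM in LV-HOXD9 cells, against 29.6 ± 1.63 FPKM in LV-Vector cells (mean ± SD of 3 libraries a group, as in all such values), for which the log2 fold change was 0.0048 with an interval of -0.19 to 0.20. DUT, the dUTPase that keeps uracil out of DNA, averaged 8.47 ± 1.32 FPKM in LV-HOXD9 cells, against 8.10 ± 0.412 FPKM in LV-Vector cells (adjusted p = 0.824).

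Among the genes that assemble the helicase, CDC45 and the 4 GINS subunits all had a log2 fold change above 0, with a median of 0.20. All 5 did so on the TPM scale and after quantile normalization. Of all 12385 genes, 4965 were above 0, 3700 on the TPM scale and 6256 after quantile normalization. GINS2 was at 8.15, 7.92 and 8.20 FPKM in LV-HOXD9 libraries, against 6.68, 6.47 and 6.43 FPKM in LV-Vector libraries. The 2 groups of GINS2 values were well apart, with a log2 fold change of 0.27 (95% confidence interval 0.13 to 0.41, adjusted p = 0.134 from limma). It lies on chromosome 16, at 85709804 to 85723679 of GRCh37, and overlaps GSE1 on the opposite strand. GINS3 was at 4.78, 4.84 and 4.75 FPKM in LV-HOXD9 libraries, against 4.05, 3.95 and 4.11 FPKM in LV-Vector libraries, again without overlap (log2 fold change 0.20, adjusted p = 0.197). GINS1 averaged 25.7 ± 3.61 FPKM in LV-HOXD9 cells, against 22.2 ± 2.56 FPKM in LV-Vector cells, and overlapped. GINS4 had the largest log2 fold change of the 44 genes, 0.35, and a wide interval of -0.17 to 0.87 (adjusted p = 0.396). Its values were 5.46, 5.67 and 5.41 FPKM in LV-HOXD9 libraries, against 2.50, 5.28 and 5.07 FPKM in LV-Vector libraries, so that LV-Vector replicate 1 alone was far below the rest. The 4 subunits form 1 complex in equal numbers as proteins, which RNA levels do not measure. Mean GINS1 FPKM was 3.17 times that of GINS2, the next highest, in LV-HOXD9 cells and 3.4 times in LV-Vector cells. CDC45 averaged 8.10 ± 0.518 and 7.69 ± 0.556 FPKM in LV-HOXD9 and LV-Vector cells (adjusted p = 0.645).

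MCM2 to MCM7 encode the 6 subunits of a single ring. Of the 7 MCM genes 3 were higher and 1, MCM6, was lower at an unadjusted p under 0.05. These were 42.9% and 14.3%, against 7.12% and 11.9% of all genes. No MCM gene passed an adjusted p of 0.05 from limma. MCM7 was at 41.6, 38.2 and 40.7 FPKM in LV-HOXD9 libraries, against 35.6, 32.7 and 34.9 FPKM in LV-Vector libraries, a log2 fold change of 0.22 (95% confidence interval 0.07 to 0.36, adjusted p = 0.178 from limma). MCM2 was at 29.9, 35.1 and 30.5 FPKM in LV-HOXD9 libraries, against 28.5, 25.5 and 27.4 FPKM in LV-Vector libraries (log2 fold change 0.22, adjusted p = 0.226). MCM5 was at 19.97, 20.4 and 20.7 FPKM in LV-HOXD9 libraries, against 18.3, 17.4 and 18.6 FPKM in LV-Vector libraries (log2 fold change 0.16, adjusted p = 0.216). In these 3 genes all LV-HOXD9 values were the higher ones. MCM6 was at 23.0, 21.1 and 21.0 FPKM in LV-HOXD9 libraries, against 24.2, 25.1 and 24.1 FPKM in LV-Vector libraries, and here all LV-HOXD9 values were the lower ones (log2 fold change -0.17, 95% confidence interval -0.31 to -0.02, adjusted p = 0.222). Removal of the trend with GC content left -0.042 for MCM6, with overlapping groups, and no MCM gene was lower at an unadjusted p under 0.05 when LV-Vector replicate 2 or either of LV-HOXD9 replicates 2 and 3 was left out. Of all genes, 7.15% were lower without LV-Vector replicate 2, 9.67% without LV-HOXD9 replicate 2 and 8.45% without LV-HOXD9 replicate 3. MCM3 averaged 38.9 ± 0.128 FPKM in LV-HOXD9 cells, against 36.7 ± 1.31 FPKM in LV-Vector cells without overlap, and MCM4 averaged 25.4 ± 1.61 and 24.1 ± 0.721 FPKM with overlap. MCM10, which is not part of the ring and helps to activate it, averaged 7.80 ± 0.716 and 8.06 ± 0.0544 FPKM. MCM7 overlaps AP4M1 and MCM2 overlaps TPRA1, both on the opposite strand, and the genes lie on chromosome 7, at 99690351 to 99699563 for MCM7, and chromosome 2, at 136597196 to 136633996 for MCM6, of GRCh37.

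Of the licensing genes, ORC1, the largest subunit of the origin recognition complex, was at 16.1, 16.9 and 15.7 FPKM in LV-HOXD9 libraries, against 14.0, 14.6 and 14.1 FPKM in LV-Vector libraries. The groups did not overlap, and the log2 fold change was 0.18 (95% confidence interval 0.04 to 0.31, adjusted p = 0.205 from limma). CDT1, an MCM loader, averaged 39.7 ± 3.23 FPKM in LV-HOXD9 cells, against 34.4 ± 3.54 FPKM in LV-Vector cells (adjusted p = 0.292). ORC6, the smallest subunit, averaged 6.19 ± 1.10 FPKM in LV-HOXD9 cells, against 4.96 ± 1.22 FPKM in LV-Vector cells (adjusted p = 0.406). CDC6, the other loading factor, averaged 15.0 ± 1.02 and 14.7 ± 0.365 FPKM (adjusted p = 0.881). The groups of CDT1, ORC6 and CDC6 overlapped.

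The polymerase and clamp loader genes contained the lowest fold changes. RFC1, the large subunit of the clamp loader, was at 10.4, 10.2 and 8.21 FPKM in LV-HOXD9 libraries, against 11.5, 13.2 and 12.3 FPKM in LV-Vector libraries. All LV-HOXD9 values were below all LV-Vector values, with LV-HOXD9 replicate 3 the lowest (log2 fold change -0.33, 95% confidence interval -0.57 to -0.09, adjusted p = 0.190 from limma). POLA1, the catalytic subunit of polymerase alpha, was at 6.41, 6.44 and 5.21 FPKM in LV-HOXD9 libraries, against 7.201, 7.96 and 7.09 FPKM in LV-Vector libraries. Its groups were apart in the same way (log2 fold change -0.26, 95% confidence interval -0.49 to -0.04, adjusted p = 0.222). POLD3, an accessory subunit of polymerase delta, was at 5.28, 3.55 and 4.69 FPKM in LV-HOXD9 libraries, against 5.03, 6.02 and 6.18 FPKM in LV-Vector libraries, with overlap (log2 fold change -0.30, adjusted p = 0.282). The value was -0.17 without LV-HOXD9 replicate 2, and also -0.17 after removal of the trend with GC content. RFC1 lies on chromosome 4, at 39289076 to 39367995, and POLA1 on chromosome X, at 24712036 to 25015103, of GRCh37.

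PCNA, the clamp itself, was at 194, 191 and 146 FPKM in LV-HOXD9 libraries, against 141, 181 and 176 FPKM in LV-Vector libraries. The groups overlapped widely, since 1 library of each was far below the other 2, and the interval of the log2 fold change ran from -0.24 to 0.41 around 0.086 (adjusted p = 0.747 from limma). Without LV-Vector replicate 1 the value was -0.0266. The 4 small clamp loader subunits RFC2, RFC3, RFC4 and RFC5 had log2 fold changes between -0.19 and 0.12, and the primase subunits PRIM1 and PRIM2 had -0.22 and -0.18, none past an unadjusted p of 0.05. POLA2, the second subunit of polymerase alpha, averaged 8.96 ± 0.665 FPKM in LV-HOXD9 cells, against 8.52 ± 1.27 FPKM in LV-Vector cells. The catalytic subunits POLD1 and POLE had log2 fold changes of 0.10 and 0.04, and their partners POLD2 and POLE2 had 0.12 and -0.11. The replication protein A subunits RPA1, RPA2 and RPA3 had -0.04, 0.09 and 0.0091.

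FEN1, the flap endonuclease that trims Okazaki fragments, was at 48.1, 46.6 and 46.3 FPKM in LV-HOXD9 libraries, against 43.5, 39.9 and 39.95 FPKM in LV-Vector libraries. The groups did not overlap (log2 fold change 0.19, 95% confidence interval 0.05 to 0.33, adjusted p = 0.188 from limma). LIG1, the ligase that seals the trimmed fragments, averaged 17.9 ± 1.45 FPKM in LV-HOXD9 cells, against 16.2 ± 0.532 FPKM in LV-Vector cells (log2 fold change 0.14, adjusted p = 0.333). FEN1 overlaps TMEM258, on the opposite strand. The libraries were made with a stranded kit, but whether strand was used in quantification is not stated, so reads of overlapping genes on the 2 strands may not have been kept apart. RFC4, RFC5, RPA1, RPA3 and CCNE2 also overlap genes of the table on the opposite strand, and RRM2, PRIM1 and RFC3 overlap genes on the same strand.

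**Figure D3:**
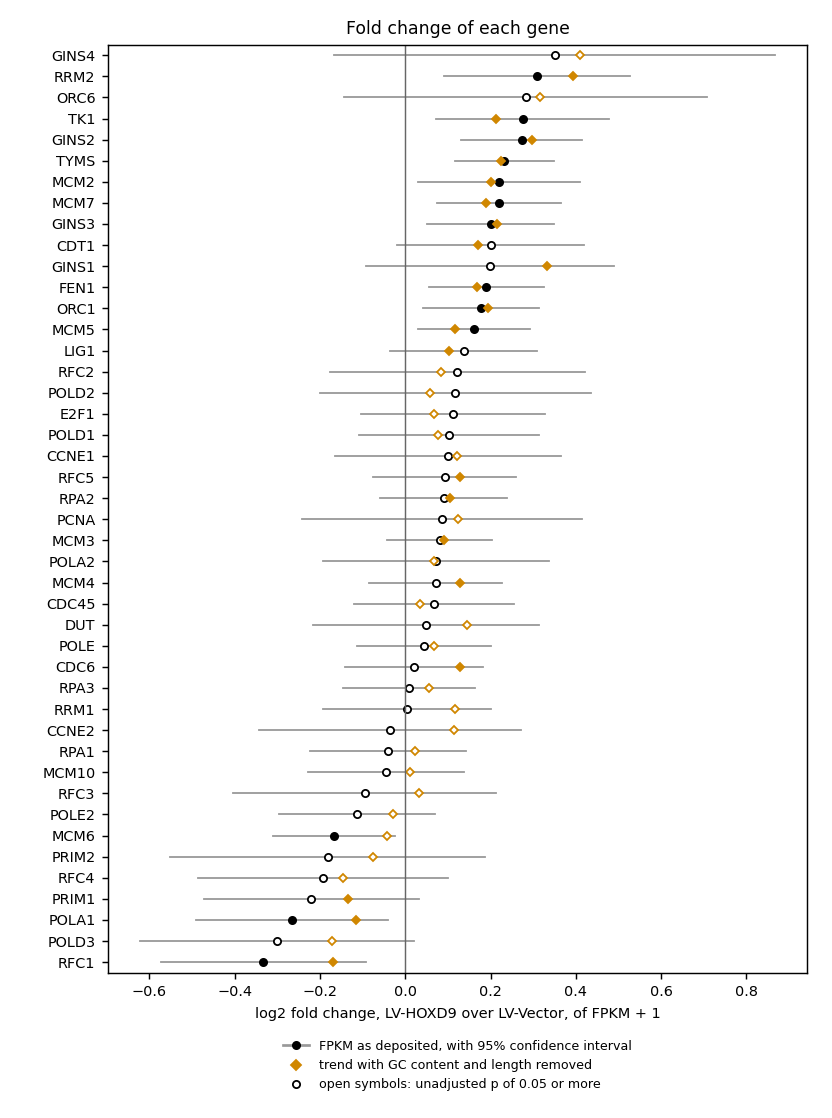
Log2 fold change of FPKM + 1, LV-HOXD9 over LV-Vector, of the 44 genes, ordered by value. Circles are the values as deposited with their 95% confidence intervals (grey lines), diamonds the values after the trend with GC content and length was removed, and open symbols have an unadjusted p of 0.05 or more. Filled circles mark 10 genes right of 0 and 3 left of it, and RFC1, POLA1 and MCM6 lie nearer to 0 as diamonds.

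Fold changes within the group followed transcript GC content. The leading transcript, the one with the highest level, had 35.4% to 64.9% GC over the 44 genes, and Spearman's rho between GC content and log2 fold change was 0.60 across these genes and 0.430 across 12054 genes with a value. These are descriptions across genes, which share the same 6 libraries and are not independent. The 10 higher genes had 45.8% to 61.6% GC, with a median of 52.2%, and the 3 lower genes 41.6% to 43.1%. Deviations from the mean level of each of the 44 genes followed GC content with a rho of 0.880 within LV-HOXD9 replicate 3, against -0.745 within LV-Vector replicate 2. It was -0.014 and 0.052 in LV-HOXD9 replicates 1 and 2, and 0.266 and -0.564 in LV-Vector replicates 1 and 3. Across all 12054 genes with a value, rho was 0.659 within LV-HOXD9 replicate 3, against -0.601 within LV-Vector replicate 2. There it was -0.050 and -0.040 in LV-HOXD9 replicates 1 and 2, and 0.231 and -0.295 in LV-Vector replicates 1 and 3. What set these library trends was not tested.

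After a smooth trend with GC content and length was removed from each library, TYMS and GINS2 passed an adjusted p of 0.05 from limma. TYMS rose by a log2 fold change of 0.23 ± 0.034 (SE, adjusted p = 0.0346) and GINS2 by 0.30 ± 0.046 (adjusted p = 0.0361), and no gene of the group was lower by that criterion. Over 17 alternatives the adjusted p of TYMS ran between 0.0346 and 0.355 and that of GINS2 between 0.0361 and 0.355. Over all genes tested, 1.60% were higher and 1.39% were lower. GINS1 and RRM2 came next, with log2 fold changes of 0.33 and 0.39 and adjusted p-values of 0.0566 and 0.0595. At an unadjusted p under 0.05, 18 of the 44 genes (40.9%) were higher, where 12.6% of all genes were, and 3 (6.82%) were lower, where 10.5% were. All 10 genes named above as higher were among the 18, joined by CDT1, LIG1, GINS1, MCM3, RPA2, RFC5, MCM4 and CDC6. RFC1 and POLA1 remained among the lower genes with smaller log2 fold changes of -0.17 and -0.12, joined by PRIM1, while MCM6 had a log2 fold change of -0.042 and an unadjusted p over 0.05. After this step Spearman's rho with GC content was 0.290 across the 44 genes and 0.0348 across all genes. These p-values take no account of the removal itself, and the step was not combined with leaving out a library.

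**Figure D4:**
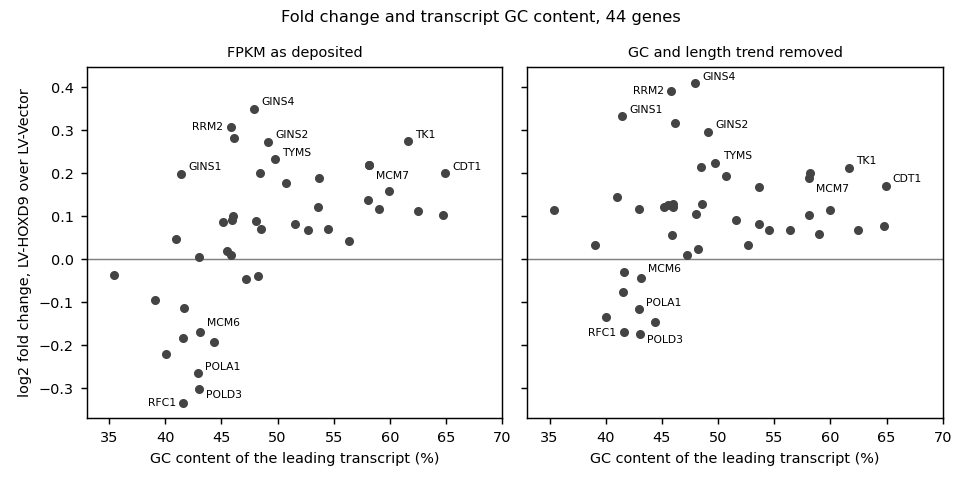
Log2 fold change, LV-HOXD9 over LV-Vector, of the 44 genes against the GC content of the leading transcript in percent, with 1 point per gene. The left panel shows FPKM as deposited, where the points rise to the right (rho 0.60), and the right panel the values after the trend was removed (rho 0.290), where RFC1, POLA1 and POLD3 are still below 0 and RRM2, GINS1, GINS2 and TYMS above it.

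Genes with related work but outside the 44 were counted from lists. Of 33 other genes of dNTP, purine and pyrimidine synthesis, 7 were higher and 0 were lower at an unadjusted p under 0.05 (21.2% and 0%, against 7.12% and 11.9% of all genes), with a median log2 fold change of 0.097. DTYMK, the kinase that phosphorylates the product of TYMS, averaged 23.8 ± 0.933 FPKM in LV-HOXD9 cells, against 20.1 ± 0.136 FPKM in LV-Vector cells (log2 fold change 0.23, adjusted p = 0.152 from limma). GUK1, the guanylate kinase, and NME1, a nucleoside diphosphate kinase, had log2 fold changes of 0.26 and 0.32. On the TPM scale 3 genes of that list were higher and 1 was lower (9.09% and 3.03%, against 3.68% and 15.5% of all genes). The median was then 0.035, against -0.11 over all genes. On the FPKM scale the median was 0.0488 without LV-HOXD9 replicate 1 and 0.0417 without LV-Vector replicate 2.

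Of 34 other licensing and fork factors, 4 were higher and 3 were lower (11.8% and 8.82%, against 7.12% and 11.9% of all genes). The median was -0.064, against -0.044 over all genes. On the TPM scale 3 were higher and 3 were lower (8.82% each, against 3.68% and 15.5% of all genes). TIMELESS, which protects the fork, averaged 17.6 ± 0.276 FPKM in LV-HOXD9 cells, against 14.9 ± 0.0214 FPKM in LV-Vector cells (log2 fold change 0.23, adjusted p = 0.145 from limma). POLE3 and POLE4, small subunits of polymerase epsilon, and RNASEH2A, the catalytic subunit of RNase H2, had log2 fold changes of 0.23, 0.33 and 0.22. Without LV-HOXD9 replicate 3, 3 of the 34 were higher and 0 were lower (8.82% and 0%, against 5.62% and 8.45% of all genes). The median was then -0.0235, against -0.033 over all genes. Without LV-Vector replicate 2, 3 were higher and 0 were lower (8.82% and 0%, against 4.61% and 7.15% of all genes). The median was then -0.0125, against -0.034 over all genes. After removal of the trend with GC content, TIMELESS and POLE3 passed an adjusted p of 0.05 as higher (5.88% of the list, against 1.60% of all genes tested).

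Of 29 regulators of the G1/S step, 5 were higher and 4 were lower (17.2% and 13.8%, against 7.12% and 11.9% of all genes). The median was 0.031, against -0.044 over all genes. On the TPM scale 3 were higher and 4 were lower (10.3% and 13.8%, against 3.68% and 15.5% of all genes). The median was then -0.031, against -0.11 over all genes. The median also took either sign without 1 library, between -0.0181 without LV-HOXD9 replicate 1 and 0.0481 without LV-Vector replicate 2, and was below 0 without LV-HOXD9 replicate 3 or LV-Vector replicate 1. CDC25A, the phosphatase that activates CDK2, averaged 14.0 ± 0.681 FPKM in LV-HOXD9 cells, against 11.2 ± 0.0905 FPKM in LV-Vector cells (log2 fold change 0.30, adjusted p = 0.116 from limma). The CDK inhibitor CDKN1A was also higher, at 78.4 ± 5.23 FPKM in LV-HOXD9 cells, against 63.2 ± 3.97 FPKM in LV-Vector cells (log2 fold change 0.31, adjusted p = 0.148). The CDK inhibitor CDKN1B averaged 32.4 ± 0.372 FPKM in LV-HOXD9 cells, against 39.4 ± 2.26 FPKM in LV-Vector cells (log2 fold change -0.27, adjusted p = 0.139). RBL2, a pocket protein that represses E2F targets in resting cells, had a log2 fold change of -0.37 (adjusted p = 0.144). After removal of the trend with GC content, CDC25A, CDKN1A and CCNA2, the cyclin of S phase, passed an adjusted p of 0.05 as higher. These were 10.3% of the list, against 1.60% of all genes tested. Of 11 genes of chromatin assembly behind the fork, 0 were higher and 0 were lower at an unadjusted p under 0.05. Over all genes 7.12% and 11.9% were, and a list of 11 genes is too short to tell its counts from those shares. SUPT16H and SSRP1, the subunits of the histone chaperone FACT, had log2 fold changes of -0.15 and 0.08, and DNMT1, the maintenance methyltransferase, and ASF1B, a histone chaperone, had 0.08 and 0.07.

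The transcript table listed 151 transcripts of the 44 genes among 40304, with up to 7 for a gene and a single one for 5 genes. None passed an adjusted p of 0.05 from limma. At an unadjusted p under 0.05, 9 of the 151 were higher and 2 were lower, and over all transcripts 3.22% were higher and 3.77% were lower. Higher transcripts numbered 5 without LV-HOXD9 replicate 2, without LV-Vector replicate 2 or without LV-Vector replicate 3. Lower ones numbered 0 without LV-HOXD9 replicate 2, 4 without LV-HOXD9 replicate 3, 5 without LV-Vector replicate 1 and 1 without LV-Vector replicate 3. Shares over all transcripts without these libraries were not counted, so these moves cannot be read as particular to the 44 genes. RFC5-204 was at 11.2, 11.97 and 12.8 FPKM in LV-HOXD9 libraries, against 9.44, 8.33 and 8.53 FPKM in LV-Vector libraries, while the RFC5 gene values overlapped (log2 fold change 0.41, adjusted p = 0.666). POLD2-201 was at 3.87, 2.96 and 2.55 FPKM in LV-HOXD9 libraries, against 1.60, 1.27 and 1.96 FPKM in LV-Vector libraries, although the POLD2 gene values overlapped (log2 fold change 0.66, adjusted p = 0.681). MCM2-201, the leading transcript of MCM2, was at 39.8, 46.0 and 32.7 FPKM in LV-HOXD9 libraries, against 29.1, 27.8 and 27.3 FPKM in LV-Vector libraries (log2 fold change 0.46, adjusted p = 0.688). In all 3 transcripts the groups were apart. GINS3-201, RRM2-202 and FEN1-201 had log2 fold changes of 0.43, 0.41 and 0.21. Transcript values were estimated from the same reads as the gene values and are no independent measurement.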

How the data were processed

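RNA of 3 LV-HOXD9 and 3 LV-Vector libraries of MKN-74 cells was sequenced on an Illumina HiSeq instrument from stranded KAPA libraries. The submitters' processing notes name cutadapt, FastQC, HISAT2, StringTie and the GRCh37 build, with no version given in the sources used here. Both deposited tables, of genes and of transcripts, hold FPKM that the authors computed with Ballgown. No gene has a mean below 0.500 FPKM in both groups, a filter that is not stated. Levels near 0 are understated as fold changes because log2(FPKM + 1) was tested.

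Genes were compared with limma 3.58.1 in R 4.3.3 (variances moderated along a trend with the mean), with p-values adjusted by Benjamini-Hochberg over all 12385 genes. A minimum mean of 0.1 FPKM removed no gene. The script was tested on simulated data with known changes. Lists were counted, not tested as sets. The 44 genes, the lists and the tests were chosen with earlier results of these data known. Library values are given for the 14 of the 44 genes with the smallest p, the 3 with the highest level, and E2F1, CCNE1 and CCNE2. For other lists up to 4 genes with the smallest p are named, and for transcripts the 6 with the smallest p and a mean of at least 1 FPKM. GINS4 values, and genes joining after the removal of trends, were chosen after their values were seen. A marker and a gene that this rule names are not reported here.

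Alternatives were a pseudocount of 0.1 FPKM, a minimum mean of 1 FPKM or none, quantile normalization, a TPM scale, removal of trends with GC content and length of the leading transcript by loess (span 0.5, GENCODE transcripts, matched for 97.3% of genes and for all 44), a replicate block, leaving out 1 library or LV-HOXD9 replicate 3 with LV-Vector replicate 2, an unmoderated and a robust model, and sums of transcripts. Promoter windows came from RefSeq, GRCh38.p14. Gene positions are those of GRCh37. Python 3.11.15, pandas 2.3.3 and matplotlib 3.10.9 were used.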

Additional observations from a re-analysis of the deposited data

How the results depend on the processing

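Over all genes, 7 higher and 18 lower genes at an adjusted p of 0.05 from limma became 4 and 30 on the TPM scale, 193 and 167 without the trend with GC content and length, 2 and 10 in the unmoderated linear model, and 3 and 6 without LV-Vector replicate 2 and LV-HOXD9 replicate 3. Leaving out 1 library gave 2 to 10 higher and 2 to 19 lower genes. Of the 44 genes, 2 passed as higher without the trend, and 0 to 0 passed in either direction without 1 library. At an unadjusted p under 0.05, the 10 higher genes became 5 on the TPM scale, 18 without the trend and 6 to 13 without 1 library, and the 3 lower ones became 1 without both libraries and 1 to 4 without 1 library. Shares of all genes moved too. Higher were 7.12% in the main fit, 3.68% on the TPM scale and 12.6% without the trend. Without LV-HOXD9 replicate 2 or 3 in turn, 5.89% and 5.62% of all genes were higher. Lower were 11.9% in the main fit and 8.36% without both libraries. The median log2 fold change of 0.088 was 0.0254 on the TPM scale and 0.0503 to 0.0933 without 1 library. Of 306 values of 18 named genes under 17 alternatives, 10 had the opposite sign, in 4 genes with no call. PCNA had -0.0348 under quantile normalization and -0.0266 without LV-Vector replicate 1, and E2F1 -0.00382 without both libraries. CCNE1 had -0.00479 without LV-HOXD9 replicate 1 and -0.0964 as a sum of transcripts. CCNE2 had 0.0474 under quantile normalization, 0.115 without the trend, 0.131 without both libraries, 0.0288 without LV-HOXD9 replicate 3 and 0.0658 without LV-Vector replicate 2. Without 1 library, PCNA ran between -0.0266 and 0.216, CCNE1 between -0.00479 and 0.17, and CCNE2 between -0.143 and 0.0658. The cause of these shifts was not tested.

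With the replicate number as a block, 1 gene was higher and 2 were lower over all genes at an adjusted p of 0.05, and 8 and 2 of the 44 at an unadjusted p under 0.05, where 6.05% and 11.1% of all genes were. Over all genes, deviations from the group mean had r of -0.173, 0.168 and -0.00641 between libraries of the same number. Deviations within groups of 3 libraries cannot show whether the numbers pair them, and no pairing is stated. With 3 libraries a group, the median 95% interval of the 44 log2 fold changes was ± 0.20, and depth is unknown.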

Other observations

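Genes of the later cell cycle were counted beside those of replication. Of 25 genes of G2 and mitosis, 6 were higher and 0 were lower at an unadjusted p under 0.05 (24.0% and 0%, against 7.12% and 11.9% of all genes), and none passed an adjusted p of 0.05 from limma. CDC20, the activator of the anaphase-promoting complex, averaged 145 ± 2.56 FPKM in LV-HOXD9 cells, against 110 ± 7.32 FPKM in LV-Vector cells (log2 fold change 0.40, adjusted p = 0.0753 from limma). PLK1, a mitotic kinase, UBE2C, the ubiquitin-conjugating enzyme of the same complex, and CCNB1, cyclin B1, had log2 fold changes of 0.32, 0.23 and 0.21. Not all of the list pointed that way: 8 of the 25 genes had a log2 fold change below 0, where 7420 of all 12385 genes had. The median was 0.040, against -0.044 over all genes. The list median moved with each of the 6 libraries left out, between 0.0108 without LV-HOXD9 replicate 1 and 0.101 without LV-HOXD9 replicate 3. Over all genes it was -0.033 without LV-HOXD9 replicate 3. Named after their values were seen, MKI67, the source of the Ki-67 antigen, TOP2A, topoisomerase II alpha, and CENPF, a kinetochore protein, had log2 fold changes of -0.52, -0.30 and -0.28 (adjusted p = 0.367, 0.262 and 0.311 from limma). All 3 LV-HOXD9 values of TOP2A lay below all 3 LV-Vector values. MKI67 was at 36.7, 39.3 and 17.4 FPKM in LV-HOXD9 libraries, against 52.0, 40.7 and 36.4 FPKM in LV-Vector libraries, with overlap. Without LV-HOXD9 replicate 3, the lowest log2 fold change of the whole list was -0.175. After removal of the trend with GC content and length, MKI67, TOP2A and CENPF had log2 fold changes of -0.41, -0.11 and -0.090. Summed over the 25 genes, the level was 845, 821 and 776 FPKM in LV-HOXD9 libraries, against 736, 778 and 745 FPKM in LV-Vector libraries, which overlap. On the TPM scale 4 of these genes were higher and 1 was lower, where 3.68% and 15.5% of all genes were. The list median was -0.020 on that scale, against -0.11 over all genes. After removal of the trend with GC content and length, CDC20, PLK1, UBE2C, CCNB1, KIF20A and MAD2L1 passed an adjusted p of 0.05 as higher. These were 24.0% of the list, against 1.60% of all genes tested. The median was then 0.11, against 0.0011 over all genes tested, with 22 genes above 0 and 3 below.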
